A study of Arabidopsis thaliana with 36 samples.

Results

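The genes described here are 10 genes of *Arabidopsis thaliana* for serine/arginine-rich (SR) and SR-like splicing factors, out of 36632 genes in the count tables. They were taken by name and locus identifier, a rule that uses no measured value, although earlier results of these data were known when the family was picked: *SR30*, *SR34* and *SR34A* of the SR subfamily, *RS31*, *RS40* and *RS41* of the RS subfamily, *SCL30A* and *SCL33* of the SC35-like subfamily, *RS2Z32* of the RS2Z subfamily, and the SR-like gene *SR45A*. All 10 were detected in every library, with 632 to 45455 read pairs per gene and library, and all 10 passed the filter on low counts. Whole seedlings of the wild type Col-0 (labelled WT) and of the mutants *hsfa2* and *cdk8* were sequenced after each of 4 treatments, in 3 biological replicates for every combination, giving 36 libraries in 12 groups. A heat stress (HS) was 1 h at 37 °C, given on day 5 (priming, P), on day 7 (triggering, T), on both days (P + T) or not at all (NHS), and every plate was harvested together on day 7. The P seedlings were thus taken days after their HS, and the T and P + T seedlings on the day of an HS. Both mutants are single T-DNA insertion lines in Col-0, *hsfa2-1* in the gene for the heat-inducible transcription factor HSFA2 and *cdk8* in the gene for the kinase of the Mediator complex.

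SR proteins bind pre-mRNA through RNA recognition motifs and contact other splicing factors through a domain rich in arginine and serine. They help the U1 snRNP and U2AF to find splice sites, and the balance among them shifts the choice between alternative sites. In plants the pre-mRNAs of SR genes are themselves alternatively spliced, often into forms that are not translated into a full protein, and heat and light change these patterns. A count per gene adds up all of these forms, so the values below are levels of all transcripts of a gene and say nothing of which form was made. In whole seedlings a lower level cannot be told apart from fewer cells that express the gene.

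By RefSeq's annotation of TAIR10.1, *SR30* (AT1G09140) lies at chr1:2942538-2945976 on the minus strand with 3 annotated mRNAs, *SCL33* (AT1G55310) at chr1:20629698-20633007 on the plus strand with 7, and *SR45A* (AT1G07350) at chr1:2257384-2260187 on the minus strand with 6. The others are *SR34* (AT1G02840, chr1:626639-629993), *SR34A* (AT3G49430, chr3:18331509-18335154), *RS31* (AT3G61860, chr3:22900050-22902395), *RS40* (AT4G25500, chr4:13024498-13027484), *RS41* (AT5G52040, chr5:21130320-21133709), *SCL30A* (AT3G13570, chr3:4429256-4432159) and *RS2Z32* (AT3G53500, chr3:19834240-19837088). Genes on the opposite strand overlap *RS40* (AT4G25510), *RS41* (AT5G52045) and *RS2Z32* (AT3G53490). AT4G25510 and AT5G52045 had 0 counts in all 36 libraries, and AT3G53490 had 46 to 198. Since the strand setting of the counting is not given in the sources used here, reads of these overlapping genes cannot be assigned with certainty.

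Heat shock factors bind inverted repeats of GAA known as heat shock elements. The 300 bases from 250 before to 50 after the annotated start of each gene were searched for the repeats TTCNNGAA and GAANNTTC, which are their own reverse complements and so cover both strands, and for the longer forms TTCNNGAANNTTC and GAANNTTCNNGAA, which contain them. A shorter repeat was in 4 of the 10 windows (*SR30*, *SCL33*, *SR45A* and *RS41*), beside 19.3% of the windows of 27443 protein-coding genes. A longer form was in the window of *SR45A* alone among the 10, beside 0.481% of all windows. Within the first 50 bases from the start, TTCNNGAA was present in *SR30*, *SCL33* and *SR45A* and in 1.41% of all windows, and this narrower stretch was chosen after the sites had been seen. All stretches with a site are shown. *SR30*, *SCL33* and *SR45A* are the genes with the large changes described below, and *RS41* is not one of them. Each stretch is 30 bases of TAIR10.1, read 5′ to 3′ on the strand of the gene, and capitals mark the bases fixed by the motif.
*SR30*, chr1:2945927-2945956, minus strand: tggttgtctcctTTCcaGAAcaatctaacg
*SCL33*, chr1:20629537-20629566, plus strand: agaaacgtgaaTTCgcGAAcgcagatcgta
*SCL33*, chr1:20629693-20629722, plus strand: taagataaaccTTCtaGAAgtatcctttta
*SR45A*, chr1:2260138-2260167, minus strand: tcaatcgcgtccgactTTCccGAAgcTTCt
*RS41*, chr5:21130174-21130203, plus strand: tatattttgcaGAAatTTCaattgtaaaca
With the first transcribed base counted as 0, the motifs begin at 32 in *SR30*, at −150 and 6 in *SCL33*, at 36 in *SR45A* and at −135 in *RS41*. A match is a run of letters and was not tested as a binding site.

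The libraries held 29409330 to 31224343 read pairs counted on genes. Levels are given as CPM, the read pairs of a gene per 1000000 pairs counted on genes in a library, and levels of different genes are compared as CPM per kb of exonic length. *HSP101*, a heat-induced chaperone gene, ranged from 5.06 to 69.7 CPM in the 18 libraries without recent heat (NHS or P) and from 11160 to 18046 CPM in the 18 others, and its highest value without recent heat was in replicate 1 of *cdk8* at P. *CDK8* was at 3.44 to 7.15 CPM in *cdk8* and at 14.03 to 49.9 CPM in the other genotypes. In *hsfa2*, reads of *HSFA2* were still counted after HS (630.0 to 1179 CPM, against 2571 to 4983 in Col-0), so the counts show a lower level and not an absence of transcript. Markers of green tissue (*RBCS1A*, *CAB1*) and root (*PYK10*, *PHT1;1*) were present in every library, and those of flowers (*AG*, *AP3*) stayed at or below 0.525 CPM. The dry-seed transcript *CRA1* differed most between genotypes, with medians of 9.44 CPM in Col-0 (highest 46.4), 2.36 in *hsfa2* (highest 28.9) and 258 in *cdk8* (lowest 6.55, highest 1986), and *OLEO1* reached 560.1 CPM in *cdk8* and 7.99 in Col-0.

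Without HS, the 10 genes were expressed at levels of the same order. In Col-0 at NHS the highest level per length was that of *SR34*, at 50.8 ± 2.83 CPM per kb (SD, n = 3), followed by *SCL30A* (34.9 ± 2.33) and *RS2Z32* (34.7 ± 1.19), then *RS31* (27.1 ± 1.47), *RS41* (26.0 ± 0.777) and *RS40* (25.1 ± 2.69), then *SR34A* (19.6 ± 4.25) and *SCL33* (17.5 ± 0.465). The lowest were *SR30* (13.5 ± 1.65) and *SR45A* (13.4 ± 2.28). Neighbours within each of these steps differed by less than the larger of their SDs. For *RS41*, 518 of 2484 exonic bases overlap AT5G52045. Depending on the strand setting, pairs there may be uncounted as ambiguous, so its level per kb may be too low. After a first HS the order was turned over. *SR45A* was now the highest at 694 ± 17.4 CPM per kb, followed by *SR30* (88.9 ± 10.2) and *SCL33* (78.9 ± 4.93), whose levels were within their SD of each other, and only then by *SR34* (50.7 ± 2.69).

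*SR45A*, *SR30* and *SCL33* rose strongly after a first HS in Col-0 (T/NHS), and they were the only members of the 10 called, with a call needing an adjusted p under 0.05 and an absolute log2FC above 1 in edgeR's quasi-likelihood test. The background share of genes called higher was 8.68% of 20847 tested, and 17.1% were called lower. *SR45A*, an SR-like factor known to be induced by heat and strong light, was at 31.6, 22.9 and 25.2 CPM in the 3 NHS libraries and at 1409.8, 1341 and 1378 CPM in the 3 T libraries. Every T library was far above every NHS library, and the log2FC was 6.47 (SE 0.19, adjusted p = 1.54e-22), or 88.5-fold. *SR30*, related to the ASF/SF2 factor of animals, was at 34.8, 28.3 and 28.5 CPM at NHS and at 207, 219.7 and 175 CPM at T. Its log2FC was 3.48 (SE 0.15, adjusted p = 1.40e-18), with no overlap of the groups. *SCL33*, an SC35-like factor, was at 47.6, 45.7 and 45.3 CPM at NHS and at 217, 213 and 193 CPM at T. Its log2FC was 2.94 (SE 0.11, adjusted p = 5.99e-20), again with no overlap. Log2FC values are scaled by TMM, which sets the bulk of genes to no change, whereas CPM is not, so the fitted changes are larger than the CPM values alone would give.

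**Figure D1:**
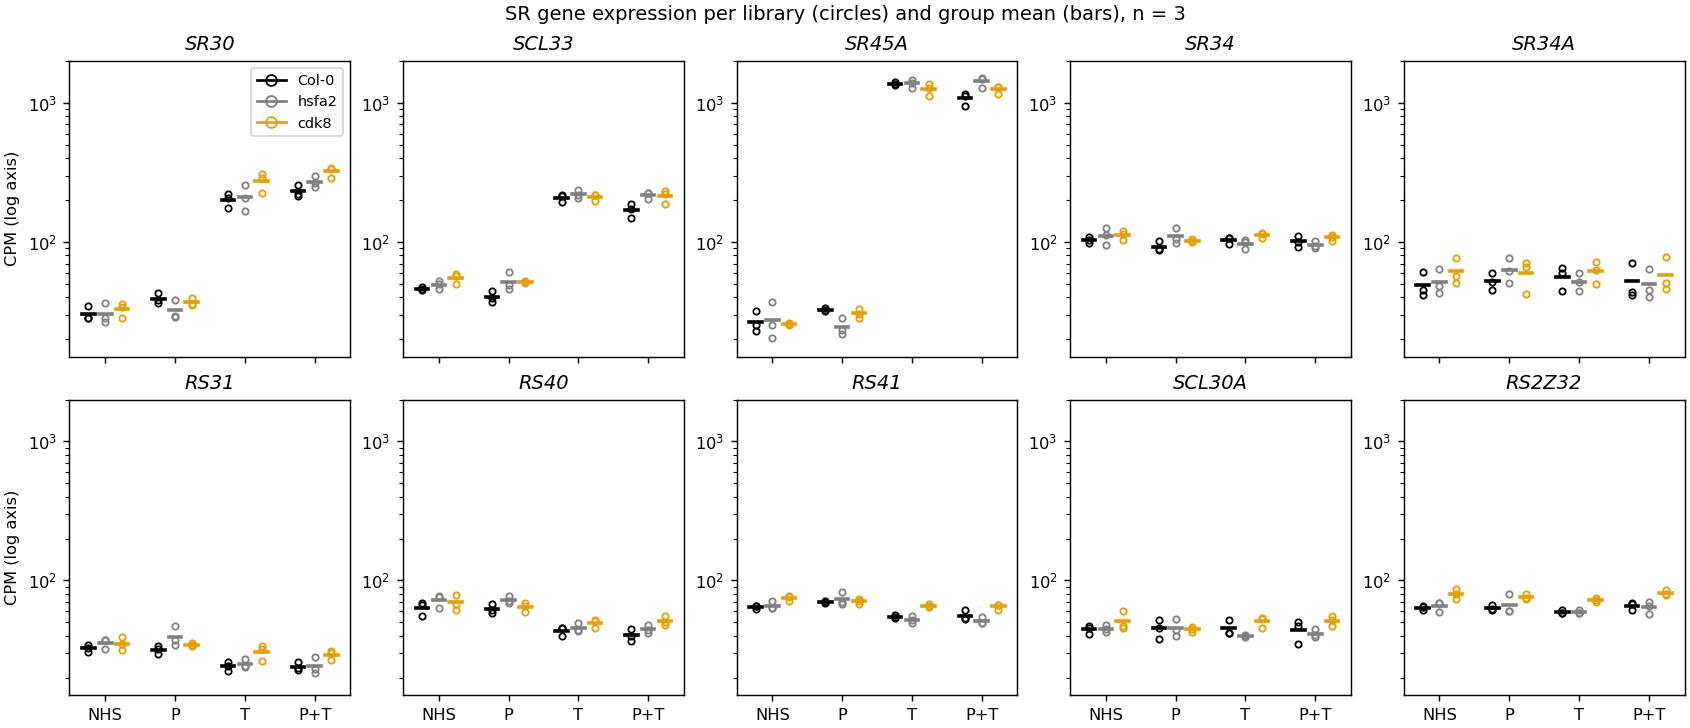
CPM of the 10 genes on a log axis, by treatment and genotype, with 1 circle per library and a bar at each group mean (n = 3). In every genotype *SR45A*, *SR30* and *SCL33* are higher in each T and P + T library than in each NHS and P library, with *SR45A* going from 20.4 to 37.1 CPM up to 956 to 1510.1 CPM, while the other 7 genes stay within a narrow band.

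The other 7 members changed less than these 3, and the direction of that change depended on the scaling. With TMM all 7 passed the adjusted p in T/NHS, with log2FC from 0.23 in *RS40* (SE 0.10, adjusted p = 0.040) to 0.97 in *SR34A* (SE 0.22, adjusted p = 4.00e-04), beside 29.9% of all genes higher at that threshold. *RS41* had 0.54 (SE 0.07), *RS2Z32*, a factor with zinc knuckles, 0.67 (SE 0.09), *SR34* 0.77 (SE 0.09) and *SCL30A* 0.80 (SE 0.16), with adjusted p of at most 5.23e-05, and *RS31* had 0.35 (SE 0.10, adjusted p = 0.00261). *RS40* failed the adjusted p when replicate 2 or 3 of Col-0 at NHS or replicate 1 or 2 of Col-0 at T was left out (log2FC 0.14 to 0.24, adjusted p up to 0.234). With *SR34A* so close to the fold threshold of 1, it was also called when replicate 2 of Col-0 at NHS (log2FC 1.14), replicate 3 of Col-0 at T (1.09) or replicate 1 of *cdk8* at T (1.01) was left out. When libraries were scaled by their size alone, the median of all genes moved by −0.77 in T/NHS. The 7 values then ran from −0.55 to 0.20, with 3 genes lower at an adjusted p under 0.05 (*RS31*, *RS40* and *RS41*) and none higher, while *SR45A*, *SR30* and *SCL33* stayed called. On that scaling 7.00% of all genes were higher and 70.0% lower, against 29.9% and 32.5% with TMM. Relative to the median of all genes each of the 7 was higher. A change of scaling moves all genes by nearly the same amount, so the 2 scalings are not separate support for this. CPM is scaled by library size and not by TMM, so it does not settle the direction. In CPM *RS40* was at 55.8 to 68.5 at NHS and 39.7 to 45.8 at T. *SR34* was at 97.6 to 109 and 96.6 to 106.

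**Figure D2:**
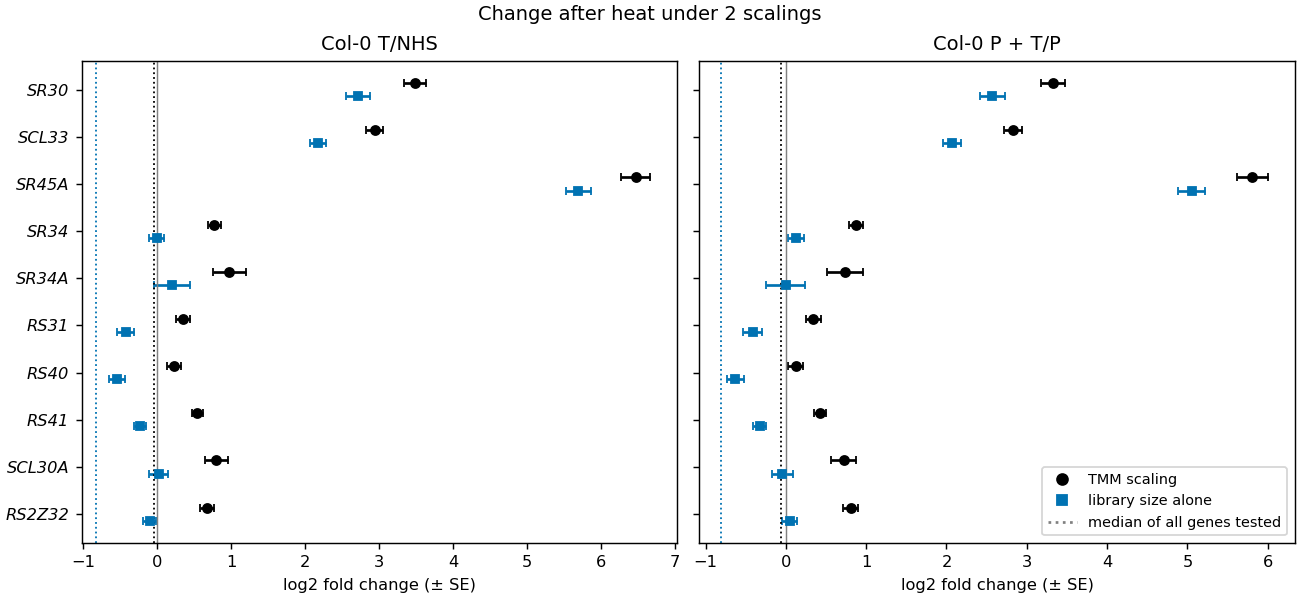
Log2FC ± SE of the 10 genes in Col-0 after a first HS (T/NHS) and after a second HS relative to priming alone (P + T/P), with TMM scaling (black circles) and library size alone (blue squares); dotted lines mark the median of all genes tested. *SR45A*, *SR30* and *SCL33* are far to the right on both scalings, and the other 7 go from 0.23 to 0.97 with TMM to −0.55 to 0.20 with library size in T/NHS.

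Added up, transcripts of the 10 genes were much more abundant after HS, and their make-up changed. In the 18 libraries without recent HS (NHS and P, all genotypes) the sum over the 10 genes was 249 to 327 CPM per kb, and in the 18 libraries of T and P + T it was 820 to 1187. *SR45A*, *SR30* and *SCL33* together made up 14.3 to 18.8% of the sum in the former and 77.2 to 83.4% in the latter. *SR45A* alone went from 3.52 to 6.44% of the sum to 58.1 to 66.8%. The other 7 genes summed to 207 to 273 CPM per kb without recent HS and to 179 to 242 after it. These ranges overlap with the genotypes pooled. Within Col-0, T (194 to 206) was below NHS (210 to 227), and P + T (182 to 221) overlapped P (207 to 228). In *hsfa2*, T (182 to 202) was below NHS (207 to 251), and P + T (179 to 209) below P (226 to 273). In *cdk8*, T (219 to 242) overlapped NHS (233 to 267), and P + T (218 to 240) overlapped P (225 to 242). These sums are in CPM, scaled by library size and not by TMM, so they do not settle the direction. With TMM each of the 7 had a positive log2FC in T/NHS of Col-0 (0.23 to 0.97). In *hsfa2* the same held in T/NHS (0.10 to 0.79) and in P + T/P (0.10 to 0.75). *SR45A*, *SR30* and *SCL33* were grouped after their values had been seen, and the shares are a description.

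**Figure D3:**
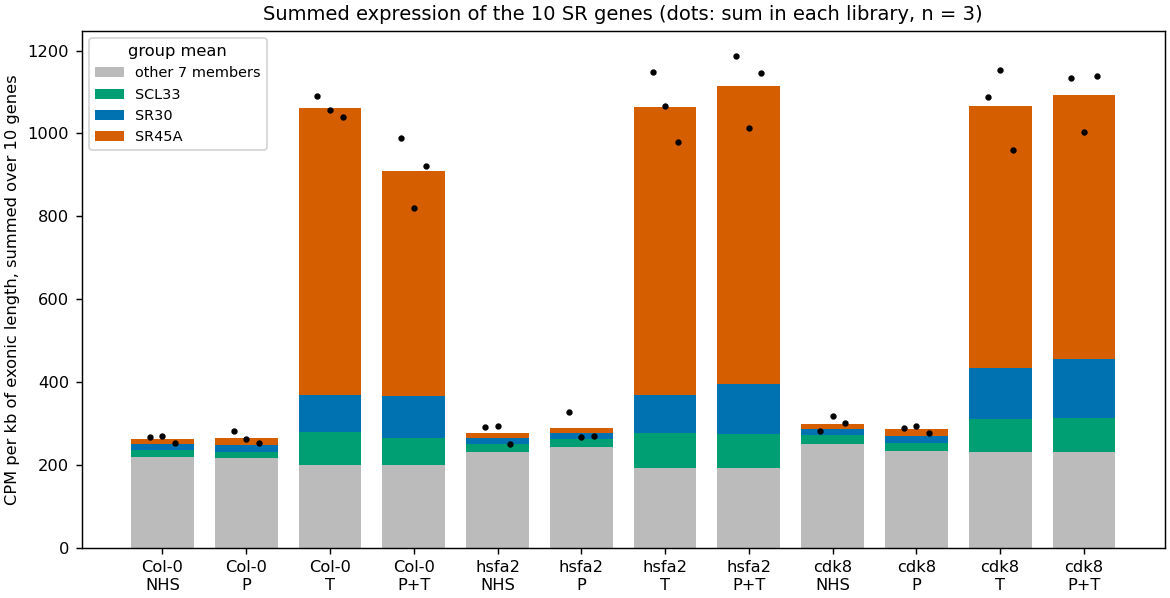
CPM per kb of exonic length summed over the 10 genes, as stacked group means by genotype and treatment, with a dot for the sum in each library (n = 3). The sums are 249 to 327 without recent HS and 820 to 1187 after it, and *SR45A* fills most of the added height.

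After P alone no member was called on day 7. In P/NHS no member was called in Col-0, *hsfa2* or *cdk8*, at background shares of 0.197%, 0.00959% and 0.0240% higher and 0.0192%, 0.00480% and 0.00% lower. In edgeR only *SR30* in Col-0 had an unadjusted p under 0.05 among the 30 tests, and DESeq2 also called 0. *SR30* was at 42.8, 38.1 and 36.4 CPM in the P libraries of Col-0 against 28.3 to 34.8 at NHS, without overlap, but with a log2FC of 0.36 (SE 0.14) and an adjusted p of 0.476. *SR45A* was at 32.4, 33.3 and 31.9 CPM at P, just above its NHS range, with a log2FC of 0.30 (adjusted p = 0.800). A difference from NHS was not detectable for any member on day 7 after an HS on day 5.

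A second HS brought the same 3 genes up again. In P + T/P of Col-0 *SR45A* (log2FC 5.81, SE 0.19, adjusted p = 9.60e-22), *SR30* (3.32, SE 0.15, adjusted p = 3.24e-18) and *SCL33* (2.83, SE 0.11, adjusted p = 1.45e-19) were called, beside 9.73% of all genes higher and 17.6% lower. The P + T libraries held 1156, 956 and 1124 CPM of *SR45A*, 258, 223 and 215 CPM of *SR30*, and 188, 149 and 172 CPM of *SCL33*. Another 6 members passed the adjusted p alone, at 30.4% of all genes, with *RS40* (0.12, adjusted p = 0.269) as the exception. *SR34A* failed the adjusted p when replicate 1 of Col-0 at P + T was left out (log2FC 0.50, adjusted p = 0.0688). Scaled by library size, 3 of the 7 were lower (*RS31*, *RS40* and *RS41*), with a median shift of −0.75 over all genes and 68.6% of all genes lower. P + T/P shares its P + T libraries with the next comparison, and T/NHS shares its T libraries.

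The comparison P + T/T sets a second HS against a first one and asks whether an earlier HS changes the response of a gene. None of the 10 genes was called in Col-0, at background shares of 3.04% higher and 1.63% lower, and DESeq2 called 0 as well. *SCL33* was lower on the adjusted p alone, like 7.01% of all genes, with 217, 213 and 193 CPM at T and 188, 149 and 172 at P + T, so that all P + T libraries were below all T libraries (log2FC −0.31, SE 0.10, adjusted p = 0.0408). This call was not stable. The adjusted p ran from 0.0240 to 0.234 over the alternatives, and it failed without any of the 3 T replicates or without P + T replicate 2, where the log2FC was −0.20. *SR45A* was at 1341 to 1409.8 CPM at T and 956 to 1156 CPM at P + T, also without overlap, but its log2FC of −0.36 (SE 0.15) had an adjusted p of 0.107. *SR30* had the opposite sign at 0.20 (SE 0.14, adjusted p = 0.376). The remaining 7 genes had log2FC of −0.13 to 0.14, with SE up to 0.22.

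In *hsfa2* and *cdk8* the P + T/T values of *SCL33* and *SR45A* were near 0. *SCL33* had a log2FC of −4.70e-05 in *hsfa2* and 0.06 in *cdk8*, and *SR45A* had 0.07 and 0.05. No member was called in P + T/T of *hsfa2* (background 1.14% higher and 0.72% lower) or *cdk8* (1.48% and 0.811%), with 1 and 2 members at an unadjusted p under 0.05 in edgeR and 0 called by DESeq2. The difference between a mutant and Col-0 in P + T/T, tested as an interaction, was 0.31 (SE 0.15, adjusted p = 0.652) for *SCL33* and 0.43 (SE 0.22, adjusted p = 0.678) for *SR45A* in *hsfa2*. In *cdk8* it was 0.37 (SE 0.15, adjusted p = 0.413) and 0.41 (SE 0.22, adjusted p = 0.657). No member passed any of the 4 interaction tests, in T/NHS or P + T/T, with edgeR or DESeq2. In edgeR *SCL33* alone had an unadjusted p under 0.05, in P + T/T of both mutants and in T/NHS of *cdk8* (−0.41, adjusted p = 0.130), and the background shares were at most 1.06% for *hsfa2* and 3.32% for *cdk8*. *SR30* in *hsfa2* had a P + T/T log2FC of 0.39 (SE 0.14, adjusted p = 0.0816). With the replicate number as a block, in a comparison whose numbers paired the libraries, it was 0.40 with an adjusted p of 0.0160, and the adjusted p ranged from 0.0160 to 0.425 over the alternatives. It also passed the adjusted p with DESeq2 (0.0463) and when replicate 1 of *hsfa2* at T was left out (log2FC 0.54, adjusted p = 0.0187). Its values were 255, 207 and 166 CPM at T and 298, 250.2 and 264 CPM at P + T, groups that overlap.

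**Figure D4:**
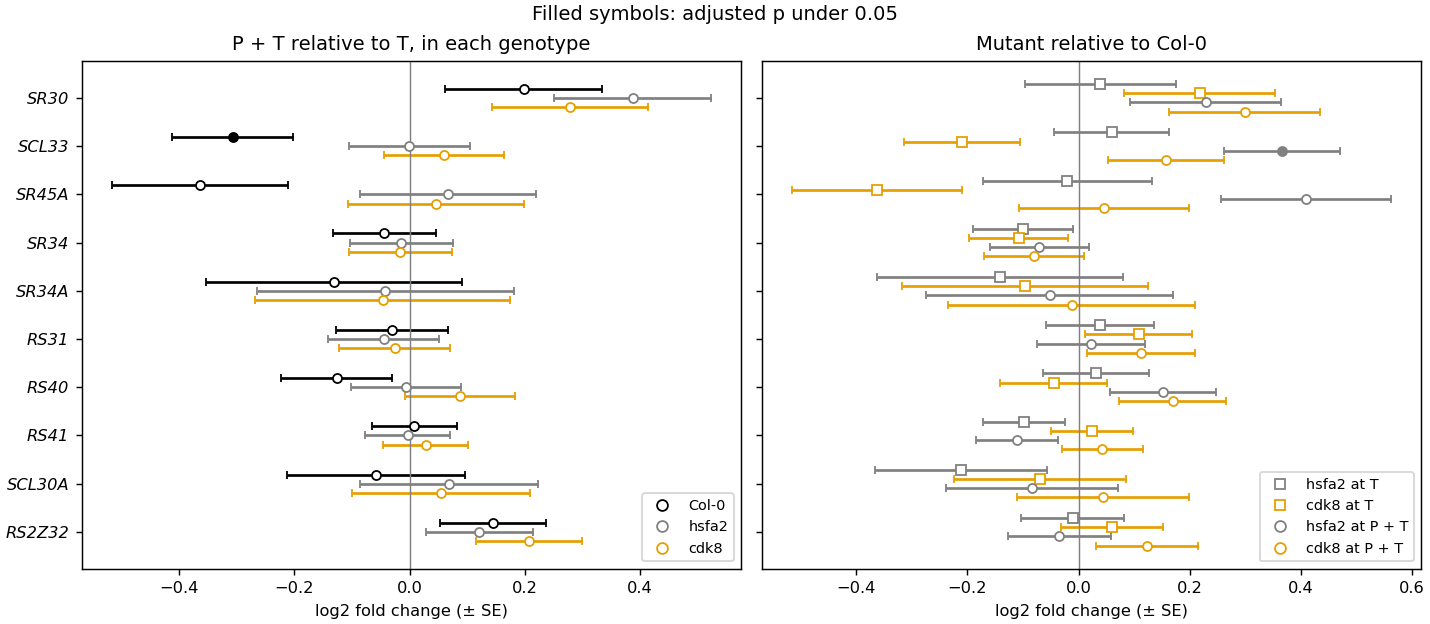
Log2FC ± SE of the 10 genes for P + T relative to T in each genotype (left) and for each mutant relative to Col-0 at T and at P + T (right); filled symbols have an adjusted p under 0.05. The 2 filled symbols are *SCL33* in Col-0 P + T/T (−0.31) and *SCL33* in *hsfa2* at P + T (0.37), and all values lie between −0.36 and 0.41.

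The same 3 genes were called in T/NHS and P + T/P of *hsfa2*, at background shares of 8.97% and 9.45% higher (15.9% and 16.2% lower), and of *cdk8*, at 7.53% and 7.85% (15.9% and 17.9% lower). *SR45A* had a T/NHS log2FC of 6.42 in *hsfa2* and 6.20 in *cdk8*, *SR30* 3.56 and 3.65, and *SCL33* 2.94 and 2.53, with SE of 0.11 to 0.19. In *hsfa2*, *SR45A* went from 37.1, 20.4 and 25.2 CPM at NHS to 1474, 1387 and 1281 at T and 1510.1, 1281 and 1494 at P + T. In *cdk8* it went from 25.5, 25.9 and 26.2 CPM to 1282, 1370.0 and 1124 at T and 1309.8, 1163 and 1312 at P + T. Each heated library thus held at least 956 CPM in the 3 genotypes, and each library without recent HS at most 37.1. The interactions of *hsfa2* in T/NHS ran from −0.19 to 0.08 and those of *cdk8* from −0.41 to 0.17, with SE of 0.10 to 0.31.

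Comparing each mutant with Col-0 at one treatment, 1 of 80 tests of a member passed. *SCL33* was higher in *hsfa2* at P + T, with 224, 203 and 224 CPM against 188, 149 and 172 in Col-0, without overlap (log2FC 0.37, SE 0.10, adjusted p = 0.0286), where 2.30% of all genes were higher and 4.22% lower. The adjusted p ran from 0.0128 to 0.174 over the alternatives and failed without Col-0 P + T replicate 2 (log2FC 0.26) or without *hsfa2* P + T replicate 1 or 3. The Col-0 libraries of this contrast are those that were low in P + T/T, so the 2 results are not independent. *SR45A* was higher by 0.41 (SE 0.15) in the same contrast, with an adjusted p of 0.115, and *SR30* by 0.23 (SE 0.14, adjusted p = 0.384). At T the 10 genes of *hsfa2* lay between −0.21 and 0.06, at NHS between −0.04 and 0.16 and at P between −0.44 and 0.32, and 0 passed, where 0.0144%, 0.00959% and 0.0336% of all genes were higher and 0.139%, 0.00959% and 0.273% lower. The count at an unadjusted p under 0.05 was 0 at T and NHS and 5 at P, where 626 of 20847 genes were higher and 893 lower at that threshold. The lowest at P was *SR45A*, at 28.6, 21.8 and 23.5 CPM in *hsfa2* and 31.9 to 33.3 in Col-0, with no overlap and an adjusted p of 0.405.

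In *cdk8* no member passed at NHS, P, T or P + T, where 2.68%, 2.69%, 10.2% and 6.49% of all genes were higher and 4.32%, 3.69%, 12% and 11.9% lower. The count at an unadjusted p under 0.05 was 2, 2, 1 and 1, beside 1767, 1578, 3581 and 2696 of 20847 genes higher and 2229, 2022, 3477 and 3486 lower, and DESeq2 called 1 at NHS and 0 at the others. *RS2Z32* was the member nearest to the threshold at NHS (0.29, SE 0.09, adjusted p = 0.0510). The replicate numbers paired the libraries here, and with the block the adjusted p was 0.0358. It ran from 0.0191 to 0.251 over the alternatives, and it was under the threshold without replicate 2 or 3 of Col-0 at P + T, replicate 1 or 2 of *hsfa2* at P, replicate 2 of *hsfa2* at P + T, or replicate 1 of *cdk8* at NHS (lowest 0.0274). At P + T *SR30* was at 335, 289 and 342 CPM in *cdk8* and 215 to 258 in Col-0, without overlap (0.30, SE 0.14, adjusted p = 0.134, and 0.0441 with the block, range 0.0171 to 0.377). *SR45A* at T was lower by 0.36 on the log2 scale, with an adjusted p of 0.0883. The high levels of the dry-seed transcripts *CRA1* and *OLEO1* in *cdk8* go with this genotype, and their part in these values was not tested. Scaled by library size, all genes shifted by a median of 0.23 at T and 0.17 at P + T, and 4 members were then higher at T (*SR30*, *RS31*, *RS41* and *RS2Z32*) and 5 at P + T (*SR30*, *RS40*, *RS41*, *SCL33* and *RS2Z32*). On that scaling 31.3% of all genes were higher at T and 18.9% at P + T.

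Of *SR45A*, 3 values turned on 1 library. Replicate 1 of *hsfa2* at NHS had 37.1 CPM, the highest of the 18 libraries without recent HS, and entered the shared estimate of spread. Without it the adjusted p of *SR45A* was 0.0476 in P + T/T of Col-0 (log2FC −0.36), 0.0481 in *hsfa2* against Col-0 at P + T (0.41) and 0.0386 in *cdk8* against Col-0 at T (−0.36). Over all alternatives these values ran from 0.0476 to 0.332, from 0.0481 to 0.330 and from 0.0386 to 0.486. Why leaving out this library lowered them was not tested.

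*SR34A* was the member that varied most between replicates, with an SE of 0.22 in each contrast within a genotype. At NHS and P + T its level went with the replicate number across the 3 genotypes. At NHS replicate 2 was the highest in Col-0, *hsfa2* and *cdk8*, at 61.1, 64.1 and 76.7 CPM against 41.2 to 56.7 in the other NHS libraries. At P + T replicate 1 was the highest, at 70.8, 64.4 and 77.8 CPM against 40.0 to 50.8. The labels do not say what a number stands for.

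In T/NHS of Col-0 none of the other splicing genes listed rose as far as *SR45A* or *SR30*. The core factor *EMB2770* (log2FC 2.86, SE 0.17) was within its SE of *SCL33* (2.94). Scaled by library size these 2 genes had 2.07 and 2.17. The 3 induced members had been singled out by their values in this same contrast. Of 10 further SR and SR-like genes, 3 were called higher in T/NHS of Col-0 and 0 lower, and the median log2FC was 0.56, beside 0.79 for the 10 members and −0.05 for all genes. The 2 highest were *SR34b* (2.59, SE 0.15), a relative of *SR34*, and *SC35* (1.40, SE 0.12), whose product defines splice sites, and the third was *RS2Z33* (1.04, SE 0.14). Scaled by library size, *SR34b* alone of the 3 was called (log2FC 1.82) and the median of the list was −0.21. On that scaling the medians of the 3 lists that follow were −0.81, −0.38 and −0.71, and the sign of the latter pair turned with the scaling. Of 10 genes for kinases that can phosphorylate SR proteins and for the import receptor *MOS14*, none was called higher and 1 lower (AT2G17530, an SR protein kinase, −1.66, SE 0.14), with a median of −0.04. Of 24 core splicing factors 1 was called higher, *EMB2770* (2.86, SE 0.17), which encodes a PRP6-like protein, and 0 lower, with a median of 0.39. Of 8 hnRNP-type RNA-binding proteins none was called, with a median of 0.06. Scaled by library size, the calls were 3 lower in the kinase list, 1 higher (*EMB2770*) and 1 lower (*CDC5*, −1.67) among core factors, and 1 lower (*GRP7*, −1.36) among the hnRNP-type proteins, of which 8 of 8 were lower on the adjusted p alone, beside 70.0% of all genes. *CDC5* and *GRP7* were named after their values had been seen.

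**Figure D5:**
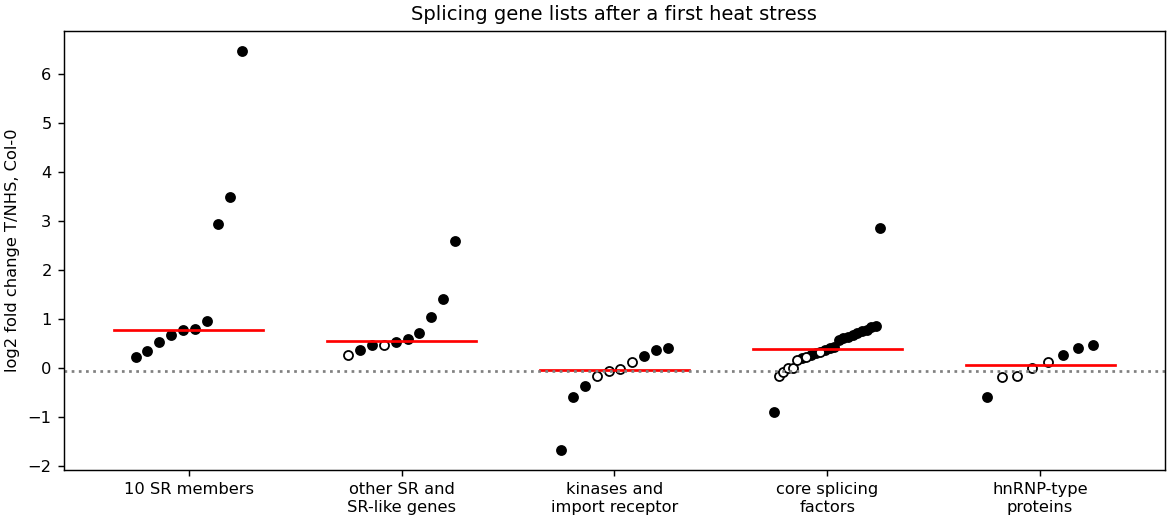
Log2FC in T/NHS of Col-0 for the 10 members and for 4 lists of other splicing genes, 1 circle per gene, filled where the adjusted p is under 0.05, with a red line at each list's median and a dotted line at the median of all genes. *SR45A* (6.47) stands above every other gene shown, and *SR34b* (2.59) and *EMB2770* (2.86) are the highest outside the 10 members.

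*EMB2770* also differed between genotypes. It was lower in *cdk8* than in Col-0 at T, with a log2FC of −1.79 (SE 0.16, adjusted p = 5.70e-10), where no member passed. Scaled by library size it was lower by 1.55 on the log2 scale. In P + T/T of Col-0 it had −0.86 (SE 0.16).

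Some genes outside the family followed the same course as *SR30* and *SR45A*. Likeness was measured as the root mean square difference of centred log2 CPM (TMM) over the 12 group means, without a test, and these means share libraries and scaling. Nearest to *SR30* were AT1G23180 (0.098), *TPR5* (0.129) and AT2G33735 (0.160). Nearest to *SR45A* were *RBL14* (0.230), annotated as rhomboid-like, *CLPB4* (0.253), a mitochondrial member of the ClpB disaggregases, and *ROF1* (0.264), an FKBP-type isomerase. Among the members, *SCL33* was 0.474 from *SR30*, at rank 120 of the genes nearest to it. *SR45A*, with its larger log2FC, was 1.35 from *SR30*, at rank 1524.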

How the data were processed

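RNA-sequencing was performed on seedlings of 3 genotypes after 4 treatments. The deposited values are counts of read pairs per gene, which the authors obtained by mapping oligo-dT-selected, paired reads to TAIR10 with STAR 2.7.10a; the strand column is not given in the sources used here. The counts are not normalized. All 36632 identifiers were found in RefSeq's TAIR10.1 annotation, which also gave positions, exonic lengths and sequences. Libraries held 29409330 to 31224343 counted pairs, and 5.62 to 7.10% of pairs were ambiguous between genes and not counted.

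Tests used edgeR 4.0.16 under R 4.3.3 (minimum count 10, TMM, quasi-likelihood F-test, 12 groups in 1 model, 20847 genes adjusted together by Benjamini-Hochberg, two-sided). A treatment call needed an adjusted p under 0.05 and an absolute log2FC above 1; mutant contrasts and interactions used the adjusted p alone. Alternatives were DESeq2 1.42.0, its size factors in edgeR, library size alone, no low-count filter, only the groups compared, a replicate block, a fold threshold in the test, and each library left out. The members were taken by name, but the choice of this family, the lists and the thresholds were made with earlier results of these data known. All 10 members are named; per-library values are given for *SR30*, *SR45A* and members called in Col-0 or in a mutant contrast at T or P + T; in each list the 2 highest and 2 lowest called genes in T/NHS of Col-0 are named. *RS2Z33*, *CDC5*, *GRP7*, the further values of *EMB2770*, and per-library values of *SR34A* were chosen after their values were seen.

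Replicate numbers were checked for pairing by correlating residuals over 13382 genes (median r 0.228 for equal numbers, −0.132 for different ones). All 3 pairs exceeded 0.1 in Col-0 for both comparisons of P + T, in *hsfa2* for P/NHS and P + T/T, in *hsfa2* relative to Col-0 at each treatment, and in *cdk8* relative to Col-0 at each treatment except P. No replicate pair was a duplicate. Whether replicates came from separate cultures is not stated beyond "biological", so p-values measure the spread between these samples. The test was also run on simulated counts, in which most genes did not change and no shift between groups was set. That run does not bear on the choice of scaling.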

Additional observations from a re-analysis of the deposited data

How the results depend on the processing

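*SR45A*, *SR30* and *SCL33* were called in T/NHS and P + T/P of the 3 genotypes (18 results). All 18 kept direction and threshold under all alternatives run. Of 56 counts of members, 45 stayed equal or within 1.5 times, but most of the 56 were 0 and could only stay 0. In Col-0 the counts past the adjusted p alone changed, 10 higher in T/NHS, 9 higher in P + T/P and 1 lower in P + T/T. The count of 1 higher in *hsfa2* at P + T changed as well. Scaling by library size alone changed most. The members past the adjusted p were then 3 higher and 3 lower in T/NHS of Col-0, and 3 higher and 3 lower in P + T/P. In P + T/T of Col-0, 0 were lower. Relative to Col-0, *cdk8* had 5 higher at P + T (18.9% of all genes), 4 at T (31.3%) and 1 each at NHS (3.18%) and P (3.07%). The log2FC turned negative in T/NHS of Col-0 at −0.0029 for *SR34*, −0.43 for *RS31*, −0.55 for *RS40*, −0.24 for *RS41* and −0.10 for *RS2Z32*. In P + T/P of Col-0 it was −0.0029 for *SR34A*, −0.41 for *RS31*, −0.63 for *RS40*, −0.33 for *RS41* and −0.043 for *SCL30A*. In T/NHS of *hsfa2* it was −0.19 for *SR34*, −0.50 for *RS31*, −0.68 for *RS40*, −0.34 for *RS41*, −0.17 for *SCL30A* and −0.14 for *RS2Z32*. In P + T/P of *hsfa2* it was −0.20 for *SR34*, −0.34 for *SR34A*, −0.70 for *RS31*, −0.70 for *RS40*, −0.51 for *RS41*, −0.14 for *SCL30A* and −0.060 for *RS2Z32*. In T/NHS of *cdk8* it was −0.0047 for *SR34*, −0.20 for *RS31*, −0.48 for *RS40*, −0.19 for *RS41*, −0.0026 for *SCL30A* and −0.15 for *RS2Z32*. In P + T/P of *cdk8* it was −0.039 for *SR34A*, −0.24 for *RS31*, −0.34 for *RS40* and −0.12 for *RS41*. Of these negative values, 3 had an adjusted p under 0.05 in each of T/NHS and P + T/P of Col-0 and of *hsfa2*. In *cdk8*, 2 did in T/NHS and 1 in P + T/P, and the rest did not pass. These reversals come from the scaling itself, which moved the median of all genes by −0.59 to −0.80.

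With the replicate block, 1 member was higher in *cdk8* at NHS and 1 at P + T; *SR34A* in P + T/P of *hsfa2*, whose numbers did not pair, had an adjusted p of 0.0269 in place of 0.0734, and apart from these and *SR30* in P + T/T of *hsfa2* the block changed no call of a member. DESeq2, and its size factors in edgeR, each gave 1 member higher in *cdk8* at NHS. The count lower in P + T/T of Col-0 was 0 with DESeq2 size factors, without a filter and with only the groups compared. With only the groups compared, 0 were higher in *hsfa2* at P + T and 1 in *cdk8* at P. Leaving out each library gave 0 to 2 lower in P + T/T of Col-0, 0 to 2 higher in *hsfa2* at P + T, 0 to 1 higher in *cdk8* at NHS and 0 to 1 lower in *cdk8* at T. Other than for scaling, the cause was not tested. With 3 replicates the SE within a genotype ran from 0.07 to 0.22 among members, so a difference that passed for a member with a low SE could be missed in one with a high SE.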
